A study of Trachemys scripta elegans with 3 samples.

Results

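The genes of the major histocompatibility complex (MHC) and of antigen presentation were examined in the liver of the red-eared slider (*Trachemys scripta elegans*), a freshwater turtle. They were found by annotation alone: a unigene, the unit of the assembly that stands for a gene or a piece of one, was taken when its KEGG gene name was MHC1 or MHC2, or when the description of its best match in the NR protein database named histocompatibility, MHC class, beta-2-microglobulin, antigen peptide transporter or tapasin. Of the 205118 unigenes used here, 109 met this rule. Of these, 6 were left out because their best match was a rat protein, and 1 more was left out because its sole Pfam domain was that of hepcidin although its description reads tapasin-related protein. The remaining 102 unigenes are described below.

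Turtles that were 2 years old were kept for 30 days in freshwater (0 psu, the control) or in saltwater of 5 or 15 psu, and all were fed the same commercial diet. Each salinity is represented by 1 library, made from the mixed livers of 3 turtles, so the 9 turtles gave 3 libraries. There are no replicates, so no error or test can be given, and how much single turtles vary is unknown. Expression is given as FPKM, a count of sequenced fragments scaled to the length of the unigene and to the size of the library, and a difference is counted as 2-fold on the scale of log2(FPKM + 0.1), which understates the differences of low unigenes. The sample labels write the salinities as percentages, and the psu values are those of the growth protocol.

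MHC class I molecules sit on nearly all nucleated cells and show short peptides from the cell's own proteins to CD8 T cells. A class I molecule is a heavy chain bound to beta-2-microglobulin, and it is loaded in the endoplasmic reticulum with peptides that the transporter TAP brings in and tapasin helps to fit. Class II molecules are pairs of an alpha and a beta chain on antigen-presenting cells such as macrophages, dendritic cells and B cells; the invariant chain CD74 escorts them, and DM molecules exchange their peptide in the endosome. The chains that bind peptides are among the most polymorphic proteins of vertebrates and occur in several similar copies, while beta-2-microglobulin and the invariant chain are not. Reads of similar copies or alleles can be divided over several unigenes, so the unigenes below are not a count of genes. Their single values are uncertain for this reason, and sums over a class are less exposed to this division of reads. Sums have another limit: FPKM is scaled to length, so a gene assembled in several pieces enters a sum more than once.

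By description, 40 of the 102 unigenes encode class I heavy chains and 31 encode class II chains. A further 19 are partner genes: 1 beta-2-microglobulin, 2 invariant chain, 6 antigen peptide transporter, 8 tapasin or tapasin-related and 2 class II transactivator unigenes. The last 12 carry the name with less ground. They are 4 minor histocompatibility antigens, 4 unigenes of RFX1 (a transcription factor described as an MHC class II regulatory factor) and 4 unigenes with the KEGG name MHC1 only. The best match was a turtle protein for 88 unigenes, 64 of them in *Chrysemys picta bellii* and 23 in *Chelonia mydas*, and 14 matched an animal outside the turtles. An MHC domain was listed by Pfam for 33 of the 102, and 35 had neither a Pfam domain nor a Swissprot match. The annotations do not always name the same class: 4 unigenes described as class II have MHC1 without MHC2 as their KEGG name, the class I unigene c111296_g1 lists a class II beta domain beside its class I domain, and the class I unigene c123188_g5 has a class II beta chain as its Swissprot match.

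Of the 102 unigenes, 66 were above 0 in all 3 libraries. Another 9 were above 0 in 2 libraries and 16 in a single library, of which 5 were seen at 0 psu only, 6 at 5 psu only and 5 at 15 psu only. The last 11 were listed at 0 throughout. The highest FPKM of a unigene reached 100 in 13 cases and 10 in 51 cases. Together the 102 unigenes summed to 7222 FPKM in freshwater, 6275 at 5 psu and 6011 at 15 psu, which was 0.732%, 0.647% and 0.626% of all FPKM in those libraries.

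The class I heavy chains were led by c124704_g1, described as an MHC class I-related gene protein-like sequence. That name is also the Swissprot match of class I unigenes with other descriptions, such as c116736_g1 and c112589_g1. It does not show which type of class I molecule c124704_g1 is. The FPKM of c124704_g1 was 1139 in freshwater, 1399.7 at 5 psu and 1103 at 15 psu. Its log2 differences were 0.30 for 5 vs. 0 psu and -0.05 for 15 vs. 0 psu. It alone held 37.7%, 55.6% and 53.6% of the summed class I FPKM at 0, 5 and 15 psu. The second, c111795_g1, is described as histocompatibility antigen-related and carries a class I domain. Its FPKM was 725 in freshwater, 295 at 5 psu and 80.7 at 15 psu. It was lower in both saltwater libraries than at 0 psu, by a log2 difference of -1.30 at 5 psu and -3.17 at 15 psu, and it was the class I unigene with the greatest difference in FPKM between 15 and 0 psu. A second unigene of the same assembly component, c111795_g2, had 32.4 FPKM in freshwater and 22.5 at 15 psu, with a listed value of 0 at 5 psu.

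Several other class I unigenes above 0 in all 3 libraries differed in the 5 psu library by a wide margin. c111296_g1, a heavy chain of the type called F10 after the chicken protein, had 260.4 FPKM in freshwater, 0.05 at 5 psu and 210.0 at 15 psu. Its log2 difference was -10.76 for 5 vs. 0 psu and 10.45 for 15 vs. 5 psu. The 5 psu value is below the added 0.1, so the size depends on that setting. For 5 vs. 0 psu it was -7.96 with a pseudocount of 1 and -12.08 with 0.01. c117899_g1, which has neither a Pfam domain nor a Swissprot match, had 74.1 FPKM in freshwater, 4.07 at 5 psu and 33.7 at 15 psu. c116736_g1 had 10.2 FPKM in freshwater, 1.82 at 5 psu and 6.11 at 15 psu. These 3 were lowest at 5 psu. The opposite order was seen for c123791_g1, with 23.7 FPKM in freshwater, 90.1 at 5 psu and 17.5 at 15 psu, and for c102566_g3, with 7.11 FPKM in freshwater, 16.2 at 5 psu and 7.54 at 15 psu. c105207_g1 was also highest at 5 psu, with 63.8 FPKM in freshwater, 125.7 at 5 psu and 51.0 at 15 psu. Its log2 difference was 0.98 for 5 vs. 0 psu, just inside the 2-fold limit, and -1.30 for 15 vs. 5 psu.

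Of the 27 heavy chains whose highest FPKM was at least 10, several others also had their highest value in freshwater, among them the next 4. c104470_g1 had 143 FPKM in freshwater, 51.5 at 5 psu and 58.9 at 15 psu. c119858_g1, whose Swissprot match is zinc-alpha-2-glycoprotein, had 92.7 FPKM in freshwater, 40.9 at 5 psu and 60.4 at 15 psu. c112589_g1 had 42.0 FPKM in freshwater, 10.9 at 5 psu and 21.1 at 15 psu. c124195_g1 had 23.4 FPKM in freshwater, 13.1 at 5 psu and 14.3 at 15 psu, within 2-fold throughout. The first 3 differed at least 2-fold for 5 vs. 0 psu. Lowest at 15 psu was c105818_g1, with 44.0 FPKM in freshwater, 54.1 at 5 psu and 19.7 at 15 psu. c121940_g1, whose best match was a bison protein, was highest in freshwater and lowest at 15 psu, with 16.5 FPKM in freshwater, 11.2 at 5 psu and 5.01 at 15 psu. Its source was not tested.

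Besides c124704_g1 and c124195_g1, 3 of those 27 heavy chains differed by less than 2-fold in every comparison. c123468_g1 had 55.2 FPKM in freshwater, 62.0 at 5 psu and 61.6 at 15 psu. c118867_g1 had 52.2 FPKM in freshwater, 47.9 at 5 psu and 50.9 at 15 psu. c161020_g1, with a duck protein as its best match, had 20.4 FPKM in freshwater, 39.1 at 5 psu and 28.0 at 15 psu.

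**Figure D1:**
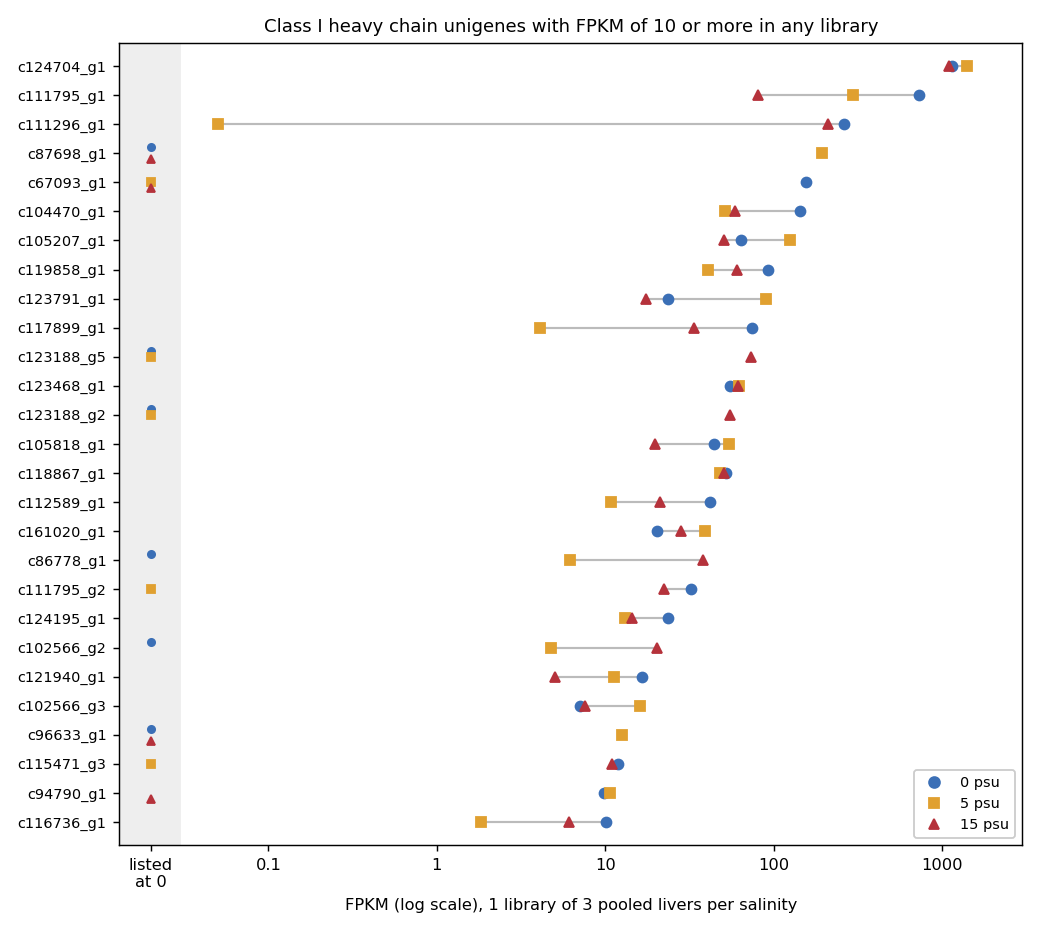
FPKM (log axis) of the class I heavy chain unigenes with a highest FPKM of at least 10, with 1 point per library at 0, 5 and 15 psu and values listed at 0 set apart. c124704_g1 lies between 1103 and 1399.7 FPKM in all 3 libraries, c111296_g1 is at 0.05 FPKM at 5 psu, and c87698_g1, c67093_g1 and c123188_g5 have a value in a single library.

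Of the 40 class I unigenes, 22 were above 0 in all 3 libraries, 7 in 2 libraries, 8 in a single library and 3 in none. Some of the single-library unigenes were high. c87698_g1 had 194 FPKM at 5 psu and a listed value of 0 in both other libraries. c67093_g1 had 155 FPKM in freshwater and a listed value of 0 in both saltwater libraries. c123188_g5 and c123188_g2 had 73.0 and 54.8 FPKM at 15 psu and were listed at 0 in the other libraries, and c96633_g1 had 12.5 FPKM at 5 psu alone. The other 3 single-library class I unigenes had 3.59 to 7.49 FPKM.

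Among those seen in 2 libraries, c86778_g1 had a listed value of 0 in freshwater, with 6.14 FPKM at 5 psu and 38.2 at 15 psu. c102566_g2 shares its assembly component with c102566_g3, and together they had 7.11 FPKM in freshwater, 20.9 at 5 psu and 27.9 at 15 psu. Alone, c102566_g2 likewise had a listed value of 0 in freshwater, with 4.78 FPKM at 5 psu and 20.4 at 15 psu. The gap lay elsewhere in other unigenes: c115471_g3 had 11.8 FPKM in freshwater and 11.0 at 15 psu, with a listed value of 0 at 5 psu, and c94790_g1 had 9.82 FPKM at 0 psu and 10.7 at 5 psu but was listed at 0 at 15 psu. The 18 class I unigenes not above 0 in all libraries summed to 217 FPKM in freshwater, 238 at 5 psu and 222 at 15 psu. This set is defined by its values of 0, and single unigenes made up most of the sum in 2 libraries. c67093_g1 held 71.5% of it in freshwater and c87698_g1 81.3% at 5 psu, so no conclusion is drawn from how close the sums are. The unigenes c111296_g1 and c87698_g1, paired after their values were seen, together had 260.4 FPKM in freshwater, 194 at 5 psu and 210.0 at 15 psu. At 0 and 15 psu this sum is c111296_g1 alone. Because the pair was chosen by these values, no conclusion is drawn from its sum. Whether c111296_g1 and c87698_g1 are alleles or parts of 1 gene was not tested, since unigene sequences were not used here.

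Over the 40 unigenes, the summed class I FPKM was 3020 in freshwater, 2518 at 5 psu and 2056 at 15 psu, the log2 differences being -0.26 for 5 vs. 0 psu and -0.55 for 15 vs. 0 psu. The size of these differences depends on the highest unigenes. Without c111795_g1, left out after its values were seen, they were -0.05 for 5 vs. 0 psu and -0.22 for 15 vs. 0 psu, and without c124704_g1 they were -0.75 and -0.98. In a pooled liver sample, fewer cells of a type and less RNA per cell cannot be told apart. Markers of T cells, which also express class I genes (8 of 9 found), summed to 117 FPKM in freshwater, 84.1 at 5 psu and 60.6 at 15 psu. At 5 psu this lower sum came mainly from CD3E, a chain of the T cell receptor complex, with 62.0 FPKM in freshwater, 25.6 at 5 psu and 24.0 at 15 psu. For 5 vs. 0 psu it was the sole T cell marker to differ 2-fold, and 5 of the 8 had log2 differences above 0.01, with a median of 0.18. For 15 vs. 0 psu 2 of the 8 were 2-fold lower and the median was -0.55. Markers common among leukocytes, though not all present in every type (5 of 5 found), summed to 119.9 FPKM in freshwater, 127 at 5 psu and 112 at 15 psu. None of these markers was listed at 0, and their part in the class I values was not tested.

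**Figure D2:**
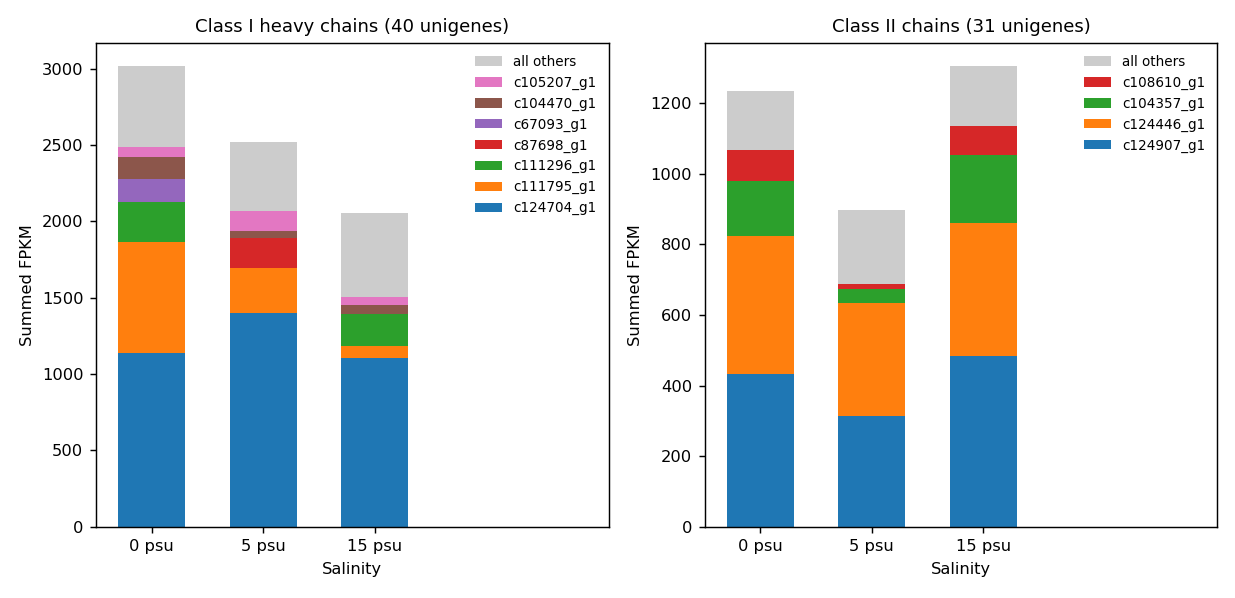
Summed FPKM (linear axis from 0) of the 40 class I heavy chain unigenes (left) and the 31 class II chain unigenes (right) at 0, 5 and 15 psu, 1 library each, with the highest unigenes as coloured parts of a bar and all others in grey. The c111795_g1 part is 725 FPKM in freshwater, 295 at 5 psu and 80.7 at 15 psu, and the class II bar is lowest at 5 psu (897 FPKM).

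Beta-2-microglobulin, the constant light chain of class I molecules that present peptides, was the second highest unigene of the group at 0 psu. The unigene c111535_g2 had 1101 FPKM in freshwater, 1198 at 5 psu and 952 at 15 psu, and differed by less than 2-fold in each comparison, with log2 differences of 0.12 for 5 vs. 0 psu, -0.21 for 15 vs. 0 psu and -0.33 for 15 vs. 5 psu. Its place at 5 psu depends on the scaling: after rescaling by the upper quartile the log2 difference for 5 vs. 0 psu was -0.20.

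The peptide transporter TAP, a dimer of TAP1 and TAP2, was low in all libraries. The TAP1-like unigene c119384_g1, which has the ATP-binding domain, had 8.87 FPKM in freshwater, 11.5 at 5 psu and 10.7 at 15 psu. A TAP2 unigene, c124874_g1, had 6.97 FPKM in freshwater, 8.03 at 5 psu and 6.60 at 15 psu, so both differed by less than 2-fold. Another TAP1-like unigene, c123188_g1, differed strongly, with 12.4 FPKM in freshwater, 0.12 at 5 psu and 27.9 at 15 psu. Its log2 differences were -5.83 for 5 vs. 0 psu, 1.16 for 15 vs. 0 psu and 6.99 for 15 vs. 5 psu. The 5 psu value is close to the added 0.1. With a pseudocount of 1 or 0.01 the 5 vs. 0 psu difference was -3.585 or -6.58.

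The unigene c123188_g1 belongs to the assembly component that also holds the class I unigenes c123188_g2 and c123188_g5, both seen at 15 psu only. In the chicken, the TAP genes lie beside the class I genes. The 3 unigenes of this component together had 12.4 FPKM in freshwater, 0.12 at 5 psu and 156 at 15 psu. This sum was chosen after the values were seen, and c123188_g2 and c123188_g5 enter it at 15 psu only. No conclusion is drawn from it, and whether the 3 unigenes lie side by side in this turtle was not tested. A second TAP2 unigene, c99733_g1, had 10.1 FPKM at 15 psu and a listed value of 0 in both other libraries, and c102571_g2 and c98079_g1 were listed at 0 in all libraries.

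Tapasin, which holds the class I molecule next to TAP, was steady in its main unigene: c114734_g1 had 56.1 FPKM in freshwater, 64.4 at 5 psu and 58.7 at 15 psu. Another tapasin unigene, c105165_g1, had 8.44 FPKM in freshwater, 19.6 at 5 psu and 4.15 at 15 psu, and the tapasin-like c119400_g2 had 5.90 FPKM in freshwater, 8.80 at 5 psu and 5.18 at 15 psu. Tapasin-related protein edits the peptides of class I molecules outside the TAP complex. Its unigenes c123577_g1 and c121428_g3 had 18.9 and 9.25 FPKM in freshwater, 15.8 and 9.16 at 5 psu and 13.5 and 9.69 at 15 psu, all within 2-fold.

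A pair of unigenes bear the tapasin-related name while their Swissprot match is another immunoglobulin-domain protein. c118362_g1, matched to programmed cell death 1 ligand 1, had 34.9 FPKM in freshwater, 71.4 at 5 psu and 51.7 at 15 psu. c116486_g1, matched to a ligand of a natural killer cell receptor, had 1.78 FPKM in freshwater, 4.35 at 5 psu and 9.73 at 15 psu, with log2 differences of 1.24 for 5 vs. 0 psu, 2.39 for 15 vs. 0 psu and 1.14 for 15 vs. 5 psu. The 5 vs. 0 psu difference was 0.94 with a pseudocount of 1 and 0.93 under the upper quartile, and that for 15 vs. 5 psu was 0.96 relative to beta-actin. The last tapasin unigene, c76701_g1, was listed at 0 in all libraries.

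Of the class II chains, c124907_g1 (an alpha chain of the DR type) and c124446_g1 (a beta chain, best matched in a crocodile) were the highest. c124907_g1 had 434 FPKM in freshwater, 313 at 5 psu and 485 at 15 psu. c124446_g1 had 391 FPKM in freshwater, 323 at 5 psu and 376 at 15 psu. Both were lowest at 5 psu, but by less than 2-fold.

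The next highest pair of class II chains were also lowest at 5 psu, and by more. c104357_g1, an alpha chain of the DR type, had 155 FPKM in freshwater, 38.2 at 5 psu and 192 at 15 psu, with log2 differences of -2.02 for 5 vs. 0 psu and 2.32 for 15 vs. 5 psu. c108610_g1, a beta chain described by the human DRB1 name, had 88.3 FPKM in freshwater, 13.6 at 5 psu and 82.9 at 15 psu, with log2 differences of -2.69 and 2.60 for the same comparisons. For 15 vs. 0 psu the values of both were close, with log2 differences of 0.31 for c104357_g1 and -0.09 for c108610_g1.

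The DM chains, which do not bind peptide themselves, hardly differed. The alpha chain c117220_g1 had 42.0 FPKM in freshwater, 42.9 at 5 psu and 41.7 at 15 psu, and the beta chain c122309_g1 had 26.0 FPKM in freshwater, 21.2 at 5 psu and 22.5 at 15 psu. c118502_g1, a beta chain with both a class I and a class II domain listed by Pfam, had 15.8 FPKM in freshwater, 17.3 at 5 psu and 16.6 at 15 psu.

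The other class II unigenes that reached 10 FPKM have no MHC domain listed and no Swissprot match. c120286_g1 was highest at 5 psu, with 20.3 FPKM in freshwater, 70.0 at 5 psu and 27.0 at 15 psu. c120755_g1 was highest at 15 psu, with 5.00 FPKM in freshwater, 5.53 at 5 psu and 20.7 at 15 psu, and c102710_g1 had 16.2 FPKM in freshwater and a listed value of 0 in both saltwater libraries. c110113_g1 had 7.42 FPKM in freshwater, 15.1 at 5 psu and 10.8 at 15 psu, and c120609_g1 had 9.86 FPKM in freshwater, 13.4 at 5 psu and 13.1 at 15 psu.

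The summed class II FPKM was 1235 in freshwater, 897 at 5 psu and 1306 at 15 psu, the log2 differences being -0.46 for 5 vs. 0 psu, 0.08 for 15 vs. 0 psu and 0.54 for 15 vs. 5 psu. The low sum at 5 psu came from chains with a class II domain: 7 such unigenes summed to 1129 FPKM in freshwater, 748 at 5 psu and 1195 at 15 psu. The 24 class II unigenes without such a domain summed to 106 FPKM in freshwater, 149.7 at 5 psu and 111 at 15 psu, highest at 5 psu. Macrophage markers (6 of 10 found) summed to 1042 FPKM in freshwater, 947.5 at 5 psu and 1127 at 15 psu, also lowest at 5 psu. For 5 vs. 0 psu, 2 of the 6 (CD163 and MARCO) were 2-fold lower and 0 were higher, with a median log2 difference of -0.38. For 15 vs. 0 psu, 1 (MARCO) was 2-fold lower and 0 were higher, with a median of -0.08, although the macrophage sum was highest at 15 psu. Dendritic cell markers (5 of 6 found) summed to 24.4 FPKM in freshwater, 23.0 at 5 psu and 17.0 at 15 psu. B cell markers, 6 genes with 1 further match left out, summed to 36.8 FPKM in freshwater, 32.8 at 5 psu and 19.0 at 15 psu, lowest at 15 psu. For 5 vs. 0 psu, 2 of the 6 (MS4A1 and PAX5) were 2-fold higher and 0 were lower, although the sum was lower. For 15 vs. 0 psu, 5 of them reached 1 FPKM in either library, of which 2 were 2-fold lower and 0 were higher. None of these markers was listed at 0, and their part in the class II values was not tested.

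The invariant chain CD74 came as unigenes of 1 component. c121536_g1 had 958 FPKM in freshwater, 771 at 5 psu and 832 at 15 psu, and c121536_g2 had 634 FPKM in freshwater, 520.2 at 5 psu and 523 at 15 psu. Their sum was 1592 FPKM in freshwater, 1291 at 5 psu and 1355 at 15 psu. It differed by -0.30 on the log2 scale for 5 vs. 0 psu and by -0.23 for 15 vs. 0 psu. If these unigenes are pieces of 1 gene, the sum counts that gene more than once. The class II transactivator CIITA, which switches on the class II genes, was low, with 3.47 FPKM in freshwater, 2.69 at 5 psu and 2.18 at 15 psu for c119355_g2 and 2.73 FPKM in freshwater, 2.52 at 5 psu and 2.27 at 15 psu for c119355_g1. Both differed by less than 2-fold, and both were highest at 0 psu.

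**Figure D3:**
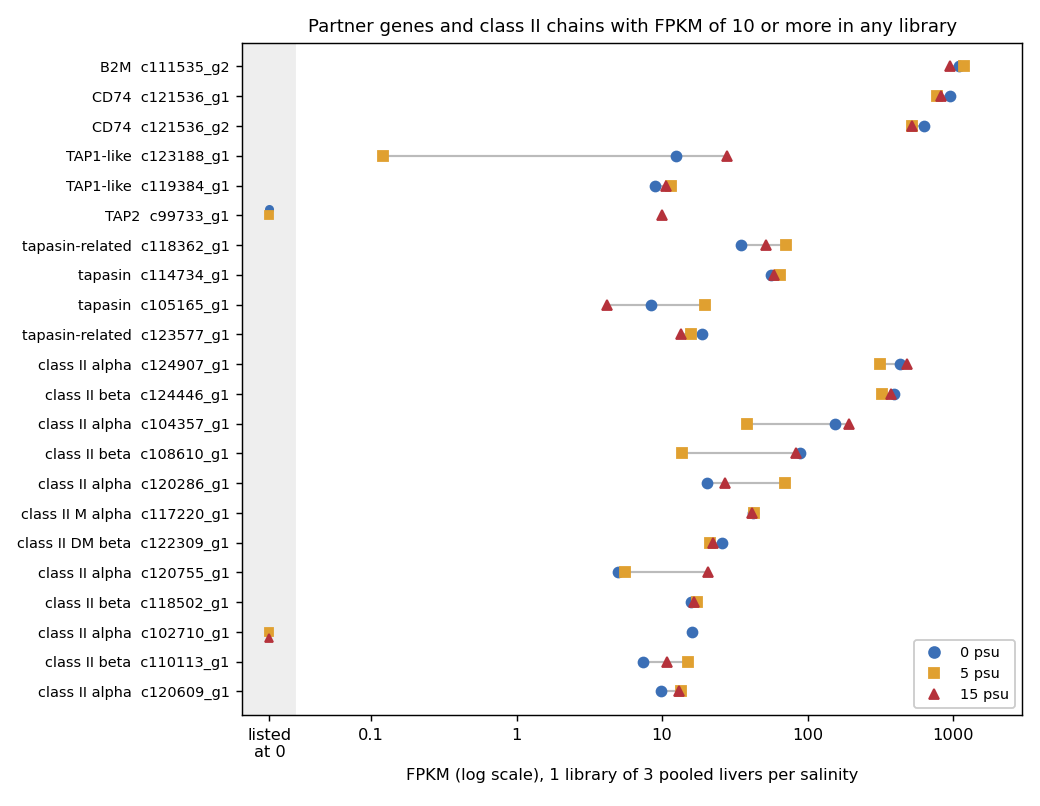
FPKM (log axis) of the partner genes and of the class II chain unigenes with a highest FPKM of at least 10, with 1 point per library at 0, 5 and 15 psu and values listed at 0 set apart. Beta-2-microglobulin (952 to 1198 FPKM) and both CD74 unigenes keep close points, while c104357_g1 and c108610_g1 have their 5 psu points at 38.2 and 13.6 FPKM.

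Counts of 2-fold differences were set beside the same counts over all unigenes and over those with a turtle protein as best match, among unigenes with at least 1 FPKM in either library. For 5 vs. 0 psu, 41 of 82 members differed 2-fold, a share of 50.0%, against 65.5% of all unigenes and 29.8% of turtle-matched ones. Any unigene listed at 0 in one library counts as 2-fold different, so those above 0 in both libraries were counted apart. Among these, 24 of 65 members (36.9%, 12 higher and 12 lower) differed 2-fold at 5 vs. 0 psu, against 29.0% of all and 14.7% of turtle-matched unigenes. By direction, 13.9% of all and 6.93% of turtle-matched unigenes were 2-fold higher, and 15.2% and 7.78% were lower.

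For 15 vs. 0 psu, 29 of 79 members differed 2-fold, which is 36.7% against 64.0% of all and 29.5% of turtle-matched unigenes. With both values above 0 it was 14 of 64 (21.9%, 4 higher and 10 lower), against 27.2% of all and 14.9% of turtle-matched unigenes. Of all and of turtle-matched unigenes, 12.2% and 6.87% were 2-fold higher and 15.0% and 8.08% were lower. For 15 vs. 5 psu, 40 of 83 differed, which is 48.2% against 65.5% and 30.5%, and with both above 0 it was 26 of 69 (37.7%, 13 higher and 13 lower) against 29.5% and 15.6%. Here 14.3% of all and 7.43% of turtle-matched unigenes were 2-fold higher, and 15.2% and 8.17% were lower. The comparisons share libraries and are not independent of each other. The median log2 difference of the members above 0 in both libraries was near that of turtle-matched unigenes, at 0.17 against 0.06 for 5 vs. 0 psu, -0.07 against 0.02 for 15 vs. 0 psu and -0.06 against -0.04 for 15 vs. 5 psu.

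The class I heavy chains had higher shares than the class II chains and the partner genes. With both values above 0, 11 of 22 (50.0%, 4 higher and 7 lower) differed 2-fold for 5 vs. 0 psu, 9 of 23 (39.1%, 1 higher and 8 lower) for 15 vs. 0 psu and 15 of 25 (60.0%, 6 higher and 9 lower) for 15 vs. 5 psu. For class II chains the counts were 7 of 19 (36.8%, 3 higher and 4 lower), 2 of 17 (11.8%, 1 higher and 1 lower) and 6 of 19 (31.6%, 4 higher and 2 lower) in the same order of comparisons. Partner genes had 4 of 15 (26.7%, 3 higher and 1 lower), 3 of 15 (20.0%, 2 higher and 1 lower) and 3 of 15 (20.0%, 2 higher and 1 lower). The 3 partner genes that were higher for 5 vs. 0 psu were c118362_g1, c105165_g1 and c116486_g1. After rescaling by the upper quartile their log2 differences were 0.72, 0.89 and 0.93, all below 2-fold. The shares of all unigenes were 29.0%, 27.2% and 29.5%. With values listed at 0 counted too, class I had 22 of 33 (66.7%), 17 of 31 (54.8%) and 24 of 34 (70.6%). On that count all unigenes had 65.5%, 64.0% and 65.5%, and turtle-matched ones 29.8%, 29.5% and 30.5%. Class I was thus above the share of all unigenes for 5 vs. 0 and 15 vs. 5 psu and below it for 15 vs. 0 psu. It was above the share of turtle-matched unigenes in each comparison. These members are few and share sequence, so the shares are descriptions.

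**Figure D4:**
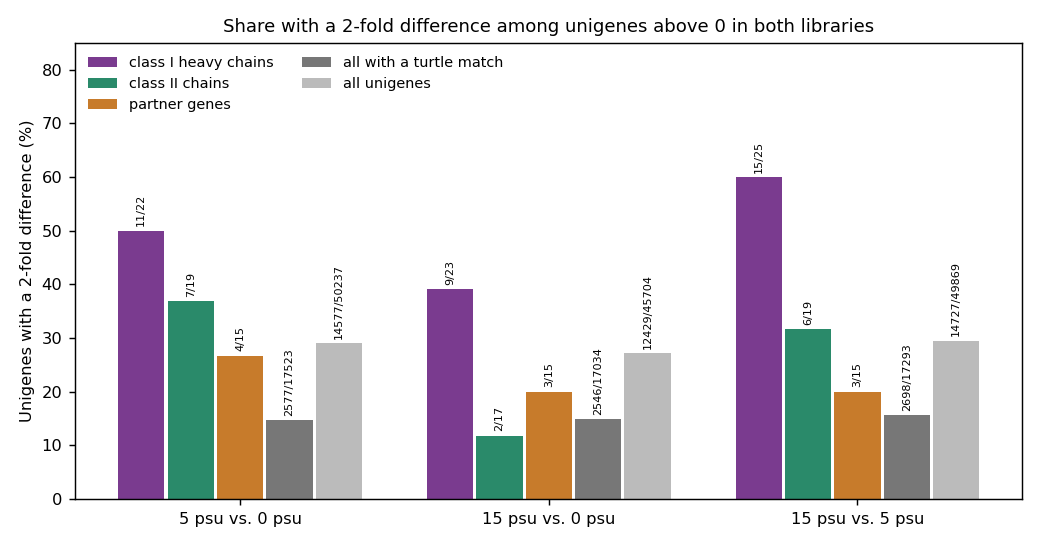
Share of unigenes (percent, axis from 0) above 0 in both libraries that differed at least 2-fold in each comparison, for class I heavy chains, class II chains, partner genes, turtle-matched unigenes and all unigenes, with the counts above the bars. Class I heavy chains are at 50.0%, 39.1% and 60.0% for 5 vs. 0, 15 vs. 0 and 15 vs. 5 psu. Turtle-matched unigenes are at 14.7%, 14.9% and 15.6%, and all unigenes at 29.0%, 27.2% and 29.5%.

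Low unigenes often differ more between libraries than high ones, so members whose highest FPKM was at least 10 were also set beside unigenes of that level. Of 51 such members, 39 (76.5%) were above 0 in all 3 libraries, against 84.2% of turtle-matched and 31.3% of all unigenes. For class I it was 17 of 27 (63.0%), for class II 11 of 12 (91.7%) and for partner genes 9 of 10 (90.0%). A single library held 7 of the 51 (13.7%) and 5 of the 27 class I unigenes (18.5%), against 13.4% of turtle-matched and 64.1% of all unigenes. Among those above 0 in all 3 libraries, 21 of 39 members (53.8%) differed 2-fold in at least 1 comparison, against 13.4% of turtle-matched and 18.8% of all unigenes. That count was 12 of 17 for class I (70.6%), 5 of 11 for class II (45.5%) and 3 of 9 for partner genes (33.3%). Their highest FPKM was at the median 2.75 times the lowest for class I, 1.55 times for class II and 1.30 times for partner genes, against 1.28 times for turtle-matched unigenes.

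Members that were low or high in a single library were counted at the same level of FPKM. Of these 51 members, 8 (15.7%) were at least 2-fold lower at 5 psu than in both other libraries, against 1.57% of turtle-matched and 1.65% of all unigenes. They were the class I unigenes c111296_g1, c117899_g1, c111795_g2, c115471_g3 and c116736_g1, the class II unigenes c104357_g1 and c108610_g1, and the TAP1-like c123188_g1. A unigene above 0 in 1 library only cannot be lower than both others, and 64.1% of all unigenes at this level were such. In the other direction, 7 members (13.7%) were 2-fold higher at 5 psu than in both others. The shares were 5.73% of turtle-matched and 22.5% of all unigenes. These members were c87698_g1, c123791_g1, c102566_g3 and c96633_g1 (class I), c120286_g1 (class II), the tapasin unigene c105165_g1 and c113559_g2. Members are few and share sequence, so these counts are descriptions. At 15 psu, 5 members (9.8%) were 2-fold lower than in both others, against 2.69% of turtle-matched and 2.82% of all unigenes, and 7 (13.7%) were 2-fold higher, against 6.28% and 21.7%. At 0 psu, 2 members (3.92%) were 2-fold lower than in both others, against 1.83% of turtle-matched and 2.22% of all unigenes, and 5 (9.8%) were 2-fold higher, against 7.42% and 25.1%.

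Other genes of the class I pathway differed little. Of 19 listed genes 16 were found, 12 of them outside the members above. None of the 12 differed 2-fold for 5 vs. 0 psu or 15 vs. 5 psu, and 1 was 2-fold higher for 15 vs. 0 psu. That was LNPEP, an aminopeptidase of endosomes, with 2.38 FPKM in freshwater, 4.18 at 5 psu and 5.19 at 15 psu. Of unigenes above 0 in both libraries, 29.0% of all and 14.7% of turtle-matched ones differed 2-fold for 5 vs. 0 psu. The shares were 27.2% and 14.9% for 15 vs. 0 psu, and 29.5% and 15.6% for 15 vs. 5 psu. The 12 genes are few. Each stands by its unigene of highest summed FPKM, while the shares cover every unigene, so the sets are unlike and the counts are descriptions. The immunoproteasome subunits, which cut proteins into class I peptides, did not move together: PSMB8 had 125.6 FPKM in freshwater, 98.7 at 5 psu and 79.1 at 15 psu, while PSMB9 had 42.0 FPKM in freshwater, 68.9 at 5 psu and 52.4 at 15 psu. Calreticulin (CALR) and PDIA3, chaperones of the loading complex, were highest at 15 psu within 2-fold. CALR had 363 FPKM in freshwater, 419.8 at 5 psu and 502 at 15 psu. PDIA3 had 288 FPKM in freshwater, 322 at 5 psu and 382 at 15 psu. The chaperone calnexin (CANX) was highest at 5 psu, with 27.84 FPKM in freshwater, 33.07 at 5 psu and 31.65 at 15 psu. The regulator IRF1 had 17.9 FPKM in freshwater, 19.0 at 5 psu and 14.2 at 15 psu.

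For the class II pathway all 12 listed genes were found, and none of the 10 outside the members differed 2-fold in any comparison, their log2 differences lying between -0.36 and 0.54. Across the comparisons, 27.2% to 29.5% of all and 14.7% to 15.6% of turtle-matched unigenes above 0 in both libraries differed 2-fold. These 10 genes are likewise few, and each stands by its unigene of highest summed FPKM. Cathepsin S (CTSS), the protease that trims the invariant chain, had 48.6 FPKM in freshwater, 44.8 at 5 psu and 65.0 at 15 psu. IFI30, a thiol reductase of lysosomes, had 91.1 FPKM in freshwater, 78.2 at 5 psu and 70.8 at 15 psu. RFX5, a factor that binds class II promoters, had 9.48 FPKM in freshwater, 10.8 at 5 psu and 8.86 at 15 psu. Of 7 class I-like molecules 2 were found by KEGG name, a match that does not cover unigenes known by their description alone. A CD1 unigene, c120477_g1, described as CD1d-like and whose product presents lipids, had 22.04 FPKM in freshwater, 21.7 at 5 psu and 35.8 at 15 psu, and PROCR, a receptor of protein C, was low with 0.49 FPKM in freshwater, 1.41 at 5 psu and 0.31 at 15 psu.

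**Figure D5:**
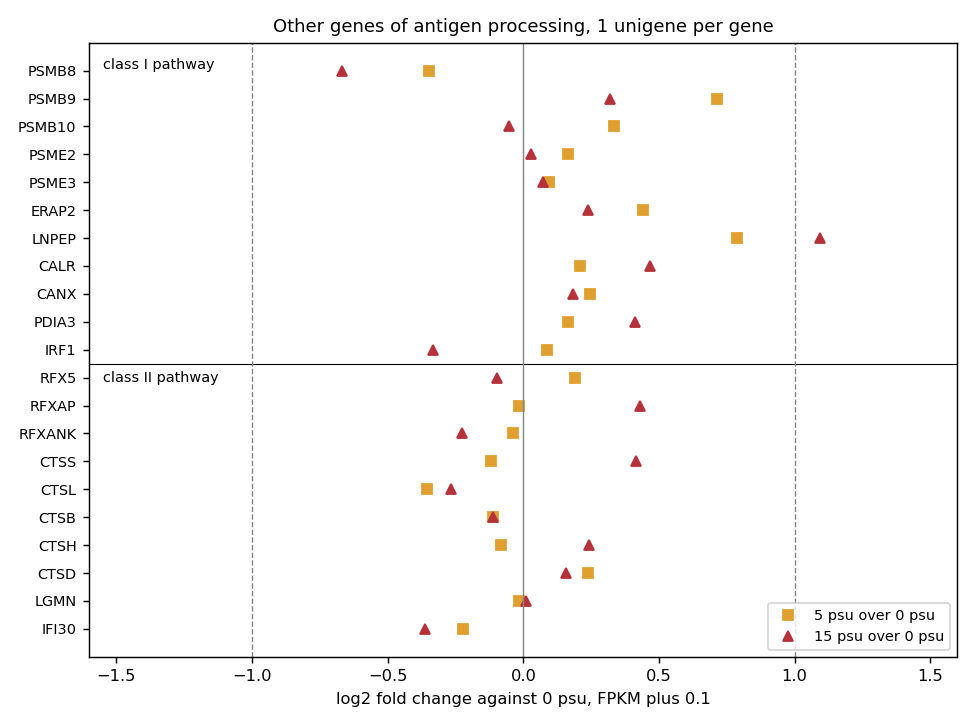
Log2 difference (FPKM plus 0.1) of 5 vs. 0 psu (squares) and 15 vs. 0 psu (triangles) for the class I pathway genes (top) and class II pathway genes (bottom) that are not members, except 1 gene that is not shown, with dashed lines at 2-fold. All points shown lie inside the dashed lines except that of LNPEP for 15 vs. 0 psu, at 1.09.

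Of the 12 members that carry the name with less ground, 5 differed 2-fold in at least 1 comparison. Most of the 12 had a highest FPKM of 1 to 10, a range in which 80.7% of all and 50.5% of turtle-matched unigenes did so. Of the 4 unigenes with the KEGG name MHC1 only, 2 were above 0 in a single library and so counted as 2-fold different. H13, known in mammals as signal peptide peptidase, had 73.2 FPKM in freshwater, 75.7 at 5 psu and 87.4 at 15 psu in c100317_g1. HA-1, a GTPase-activating protein, had 7.05 FPKM in freshwater, 9.99 at 5 psu and 6.59 at 15 psu in c124620_g1, and the 4 RFX1 unigenes summed to 11.1 FPKM in freshwater, 14.4 at 5 psu and 15.97 at 15 psu. Of the 5, c113559_g2, an uncharacterised protein with the KEGG name MHC1, was the highest and had 8.57 FPKM in freshwater, 44.2 at 5 psu and 9.90 at 15 psu. The other 4, including 1 RFX1 unigene and 1 of the minor histocompatibility antigens, had at most 3.39 FPKM in any library.

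Across the whole table, the number of unigenes above 0 was 102765 in freshwater, 119996 at 5 psu and 102228 at 15 psu. The number of reads behind each FPKM is not in the values used here, and no interval can be given without it. Hepatocyte markers (10 of 12 found) summed to 23625 FPKM in freshwater, 14859 at 5 psu and 16565 at 15 psu, which fits the liver label, and erythrocyte markers (2 of 5 found) summed to 372 FPKM in freshwater, 498 at 5 psu and 297 at 15 psu. Of the 10 hepatocyte markers, 1 was 2-fold lower than in freshwater at 5 psu and at 15 psu, and 0 were 2-fold higher. That was ALB, with 4846 FPKM in freshwater, 824 at 5 psu and 1268 at 15 psu. APOB and TTR were higher at 5 psu than in freshwater, and HPX was higher at 15 psu. The lower hepatocyte sums in saltwater were not tested for their part in the members' FPKM.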

How the data were processed

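Reads were trimmed by the authors with SeqPrep and Sickle, assembled with Trinity into unigenes, quantified with RSEM (the submitters' processing notes also name Bowtie) and annotated against NR, Swissprot, Pfam and KEGG. The deposited values are FPKM with 2 decimals for 3 libraries, 1 per salinity. No scaling between libraries is described, versions are not given in the sources used here, and 20 emptied lines were not used here.

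Members were found by their annotation and given a role from the NR text. Log2 differences were taken as log2(FPKM + 0.1), and 2-fold differences were counted where one library of a pair reached an FPKM of 1. Python 3.11.15, numpy 2.4.6, pandas 2.3.3 and matplotlib 3.10.9 were used, and the counting step was tested on simulated data. With 1 library per salinity no test was run. Unigenes are named when their highest FPKM was at least 10 or when they encode beta-2-microglobulin, a peptide transporter, tapasin or the invariant chain; for the 10 gene lists (pathways, class I-like molecules and cell markers) the unigene of highest summed FPKM stands for each gene. CIITA, HA-1 and RFX1 fall outside this rule and were named after their values were seen. Members and lists were chosen with earlier results of these data known. Lists were matched to KEGG gene names. The values of 1 B cell marker, whose NR description is another protein, and of 1 class I pathway gene are not reported here.

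Other settings tried were a pseudocount of 1 or 0.01, a minimum FPKM of 5 or none, scaling by the median ratio, the upper quartile or beta-actin, turtle-matched members, and, for sums, leaving out the highest unigene. Leaving out name-only members, class II chains without a domain or c111795_g1, and setting the class by Pfam domain, were chosen after seeing the data.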

Additional observations from a re-analysis of the deposited data

Results flagged for a closer look

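Of the 6 unigenes left out because their best match was a rat protein, 5 were listed at 0 in the freshwater library and had a value in both saltwater libraries. Their FPKM at 5 and 15 psu was 0.81 and 4.25 for c111480_g1, 0.44 and 2.25 for c111480_g3, 0.41 and 1.02 for c68812_g1, and 1.53 and 4.15 for c78688_g1. c52206_g1, described as a beta-2-microglobulin precursor, had 1.83 FPKM at 5 psu and 1.97 at 15 psu, against 1101 FPKM at 0 psu for the turtle unigene c111535_g2. The 6 unigenes summed to 0 FPKM in freshwater, 5.02 at 5 psu and 13.6 at 15 psu, and entered no sum or count of the report. Their source was not tested.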

How the results depend on the processing

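No paired analysis was possible because each salinity has 1 library and the labels give no replicate numbers. Across the alternatives the count of members with a 2-fold difference lay between 29 and 42 for 5 vs. 0 psu, between 20 and 31 for 15 vs. 0 psu and between 30 and 42 for 15 vs. 5 psu, in each case within 1.5 times the value reported. Members above 0 in all 3 libraries numbered 66, of which 65 had at least 0.1 FPKM and 54 at least 1 FPKM in each. The class I sum was lower at 5 and at 15 psu than at 0 psu under every rescaling tried, but its log2 difference for 15 vs. 5 psu was 0.12 after rescaling by the upper quartile, against -0.29 as deposited. The class II sum was lower at 5 psu than at 0 psu in all settings, with log2 differences from -0.78 to -0.45, while its small difference for 15 vs. 0 psu was -0.14 relative to beta-actin, against 0.08 as deposited. Of 134 log2 differences of named unigenes, 13 crossed the 2-fold limit under the upper quartile, 4 relative to beta-actin, 4 under the median ratio, 3 with a pseudocount of 1 and 0 with 0.01, and 27 changed sign under the upper quartile, all of them differences of less than 2-fold. The upper quartile moves log2 differences against 0 psu by -0.32 at 5 psu and by 0.09 at 15 psu, and by less where a value is near 0, because of the pseudocount. With 1 pooled library per salinity, variation between turtles, between library preparations and between MHC alleles of the turtles in a pool cannot be told apart from salinity. FPKM without read counts gives no interval, and a value of 0 cannot be told from one below detection.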
